A study of Saccharomyces cerevisiae with 27 samples.

Results

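Mitochondrial ribosomal protein genes of budding yeast are described here across 27 expression arrays. The members were all probe sets whose gene symbol on the platform reads MRPL, MRPS, MRP or RSM followed by a number and nothing else. The rule found 66 probe sets, 1 per gene, of 5716 probe sets tested: 34 MRPL, 9 MRPS, 11 RSM and 12 MRP symbols. By subunit, 37 encode large subunit proteins and 28 small subunit proteins. The remaining member, MRP8 (YKL142W), carries the name but is not a ribosomal protein, and its function is not established.

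The study compared yeast strains altered in cohesin and its regulators, each grown as 3 replicate liquid cultures and measured on Affymetrix arrays. The product of ECO1 acetylates cohesin so that sister chromatids are held together, that of FOB1 blocks replication forks within the ribosomal DNA, and that of RAD61 releases cohesin from chromatin, as Wapl does in animals. Cultures were kept at 30 °C in YPD with an added amino acid mix and collected during exponential growth. On the later of the 2 experiment dates stood eco1-W216G, fob1Δ and wild type. On the earlier date stood eco1-W216G fob1Δ, eco1-W216G rad61Δ, fob1Δ again, rad61Δ, and a pair of mcd1 mutant strains that express REC8, which replaces the cohesin subunit Mcd1 in meiosis, from the MCD1 promoter, with and without a fob1 mutation. That makes 9 groups of 3 arrays and 8 genotypes. All cultures of a genotype were of 1 strain isolate, and p-values therefore measure spread between cultures only. The wild-type strain is labelled w303a.

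The mitochondrial ribosome translates the few messenger RNAs of the mitochondrial genome, nearly all of which encode core subunits of the respiratory chain and ATP synthase. All of its proteins but 1 are encoded in the nucleus, made on cytosolic ribosomes and imported, and both subunits are needed for respiration. In yeast their messenger RNAs are bound by the RNA-binding protein Puf3, and their level is known to follow growth rate and carbon source.

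Values below are log2 of the deposited intensity per probe set, and differences are log2 differences ± SE from limma in 1 model of 9 group means. A member is called where the Benjamini-Hochberg adjusted p over all 5716 probe sets was below 0.05. RMA, which the authors used, gives arrays normalized together the same distribution of intensities by its quantile step, so only relative levels were measured, and less RNA per cell of all genes together could not be seen. Probe sets differ in how brightly they report, so levels are compared only within a probe set. Member signals averaged from 8.90 (RSM22) to 12.48 (MRPL36) over the arrays, and all 66 lay above the 20th percentile of signal.

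Arrays of the same group correlated by 0.9858 to 0.9982, and no pair of arrays was identical. FOB1 averaged 3.84 to 4.22 in groups labelled with a fob1 mutation, against 9.25 to 9.91 in the others, and RAD61 averaged 3.77 and 3.93 in both rad61Δ groups, against 6.80 to 7.29 elsewhere. ECO1 itself read 4.61 to 4.92 in the 3 eco1-W216G groups, against 7.85 to 8.10 in all others. How the eco1-W216G allele was built is not given in the sources used here, and its name, that of an amino acid substitution, does not say why the ECO1 signal is low. No gene encoded on the mitochondrial genome was matched by symbol, so the presence of mitochondrial DNA was not checked. A pair of arrays stood apart. In rad61Δ replicate 2, 187 of 191 probe sets of chromosome IX were higher than in the other replicates (median 0.82), which touches 1 member, RSM25. In later-date fob1Δ replicate 2 the members themselves were displaced, as described next, and the counts of called members below are given with and without that array where it moves them.

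In later-date fob1Δ replicate 2, all 66 members were at their highest of the 3 replicate arrays, and 60 of 66 were at their highest of all 27 arrays. Over all probe sets, 10.9% had their highest value of 27 and 38.2% their highest of 3 in that array. The members exceeded the mean of replicates 1 and 3 by a median of 0.59, from 0.11 for MRPL4, a large subunit protein at the exit of the peptide tunnel, to 1.02 for MRPL25, also of the large subunit. The median over all probe sets was -0.02. In the 24 arrays of the other groups, the median member deviation from the group's other arrays lay between -0.13 and 0.13, and between 4 and 53 members were at their highest of 3.

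MRPL25 read 11.11, 12.05 and 10.96 in later-date fob1Δ replicates 1 to 3. RSM10, a small subunit protein of the uS10 family, read 12.31, 13.16 and 12.28 there. In both genes replicates 1 and 3 lay close together and replicate 2 stood far above them. MRPL4 read 9.84, 10.02 and 9.97, so that in this gene replicate 2 was only slightly higher than replicate 3.

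The displacement in that array was shared by other nuclear genes of mitochondrial translation. Mitoribosomal proteins under other names were higher there by a median of 0.51, with 12 of 13 at their highest of 3. All 13 mitochondrial tRNA synthetases were at their highest of 3 (median 0.39). The median was 0.58 over 16 mitochondrial translation factors, of which 10 were highest in replicate 2. Smaller medians were found for 13 translational activators (0.24, 12 highest), 30 import genes (0.18, 21 highest), 15 ribosome assembly and rRNA modification genes (0.16, 12 highest) and 10 genes of mitochondrial transcription and DNA maintenance (0.16, 7 highest). A list of 14 transcription factors and RNA-binding proteins linked to mitochondrial genes had a median of 0.02, with 7 highest.

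Subunits of the respiratory chain and ATP synthase went the other way in the same array. Their median deviation was -0.45 over 41 genes, of which 2 were at their highest of 3. The small subunit processome, which assembles the cytosolic ribosome, had a median of -0.35 with 0 of 40 genes highest. Thus genes for mitochondrial translation and genes for respiratory complexes were displaced in opposite directions within 1 culture. What accompanied this in the culture was not tested.

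**Figure D1:**
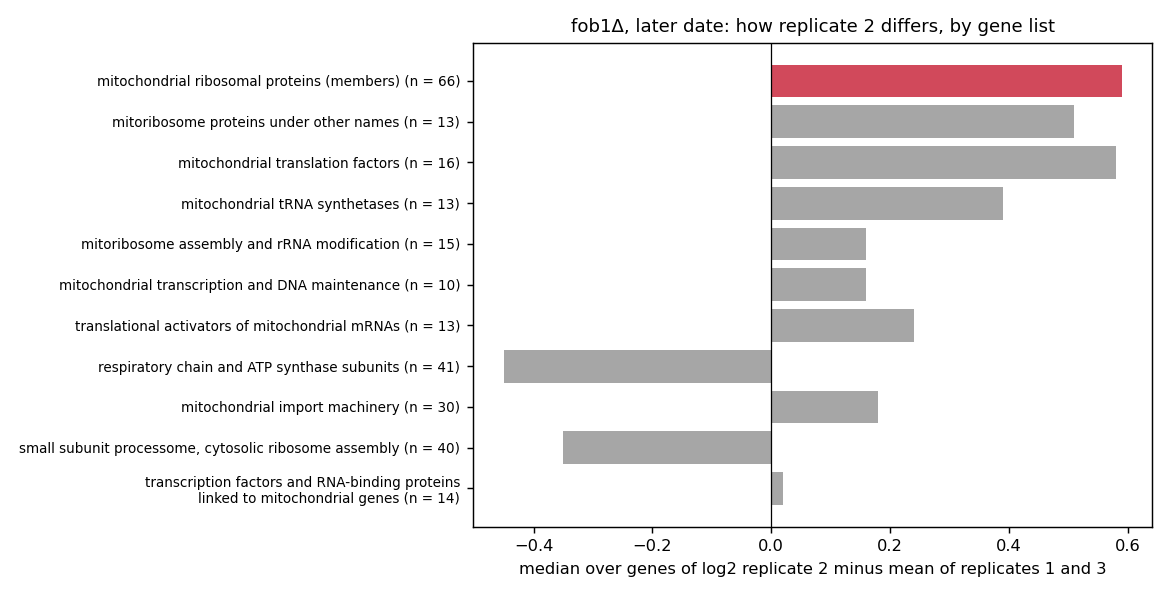
Median over the genes of each list of log2 intensity in later-date fob1Δ replicate 2 minus the mean of replicates 1 and 3 (horizontal axis), with the number of genes beside each list. The 66 members sit at 0.59, the respiratory chain and ATP synthase subunits at -0.45 and the small subunit processome at -0.35.

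The median member level is a summary of the 66 values in 1 array. It was 11.51, 11.63 and 11.54 in eco1-W216G replicates 1 to 3, against 11.39, 11.40 and 11.49 in wild type. In eco1-W216G fob1Δ it was 11.21, 11.20 and 11.20, against 11.31, 11.27 and 11.28 in fob1Δ of the same date. The lowest eco1-W216G array thus lay above the highest wild-type array, while the order was turned in the fob1Δ background, again without overlap. In eco1-W216G rad61Δ the median level was 11.41, 11.35 and 11.49, against 11.28, 11.19 and 11.28 in rad61Δ, also without overlap. Later-date fob1Δ read 11.45, 12.07 and 11.46, so replicates 1 and 3 lay inside the wild-type range and replicate 2 far outside it. Both REC8 strains lay low, at 11.16, 11.10 and 11.32 with the fob1 mutation, against 11.26, 11.09 and 11.24 without it. Those groups overlapped.

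**Figure D2:**
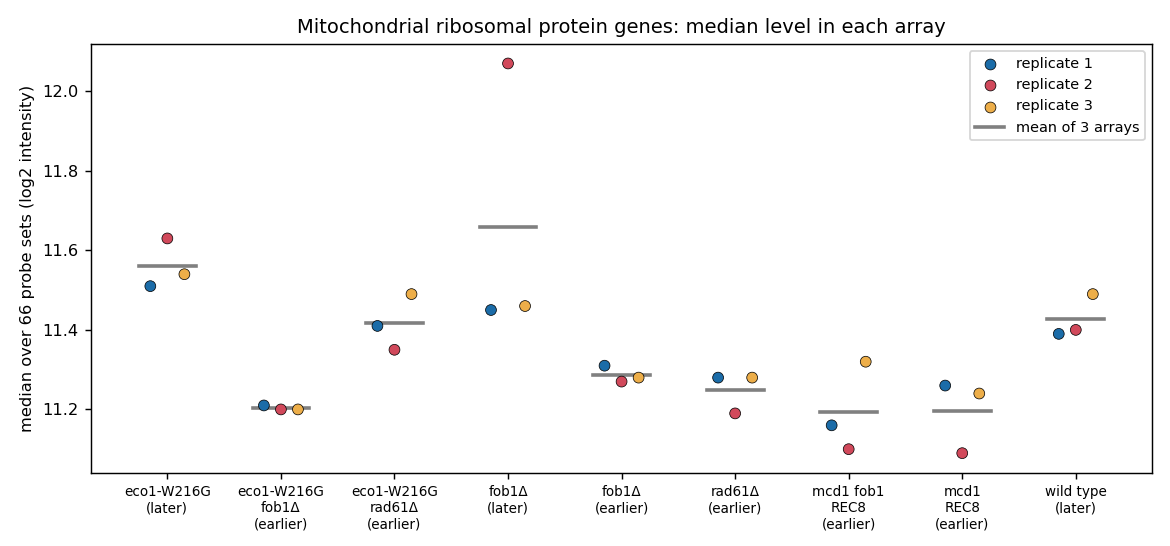
Median log2 intensity over the 66 members (vertical axis) in each of the 27 arrays, by group, with replicates as points and the mean of 3 arrays as a bar. Replicate 2 of fob1Δ on the later date stands at 12.07, and all other arrays lie between 11.09 and 11.63.

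Member by member and with all arrays, the group mean was highest in eco1-W216G for 30 genes and in later-date fob1Δ for 25. It was highest in wild type for 8, in earlier-date fob1Δ for 2 and in the mcd1 strain with REC8 and intact FOB1 for 1. From replicates 1 and 3 alone, later-date fob1Δ stayed highest only for MRP4 (10.63), MRPL8 (11.35) and MRPL13 (11.91). The group mean with all arrays was lowest in eco1-W216G fob1Δ for 30 genes and in the mcd1 fob1 strain with REC8 for 13. It was lowest in the other REC8 strain for 10 and in wild type for 9. With later-date fob1Δ replicate 2 included, the range of group means was 0.46 for the median member, against a median SD of 0.09 within a group. Groups of the earlier date dominate the low end and groups of the later date the high end. Whether both dates were normalized together is not given in the sources used here, so the genotypes are compared within a date or with the date difference of fob1Δ subtracted.

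**Figure D3:**
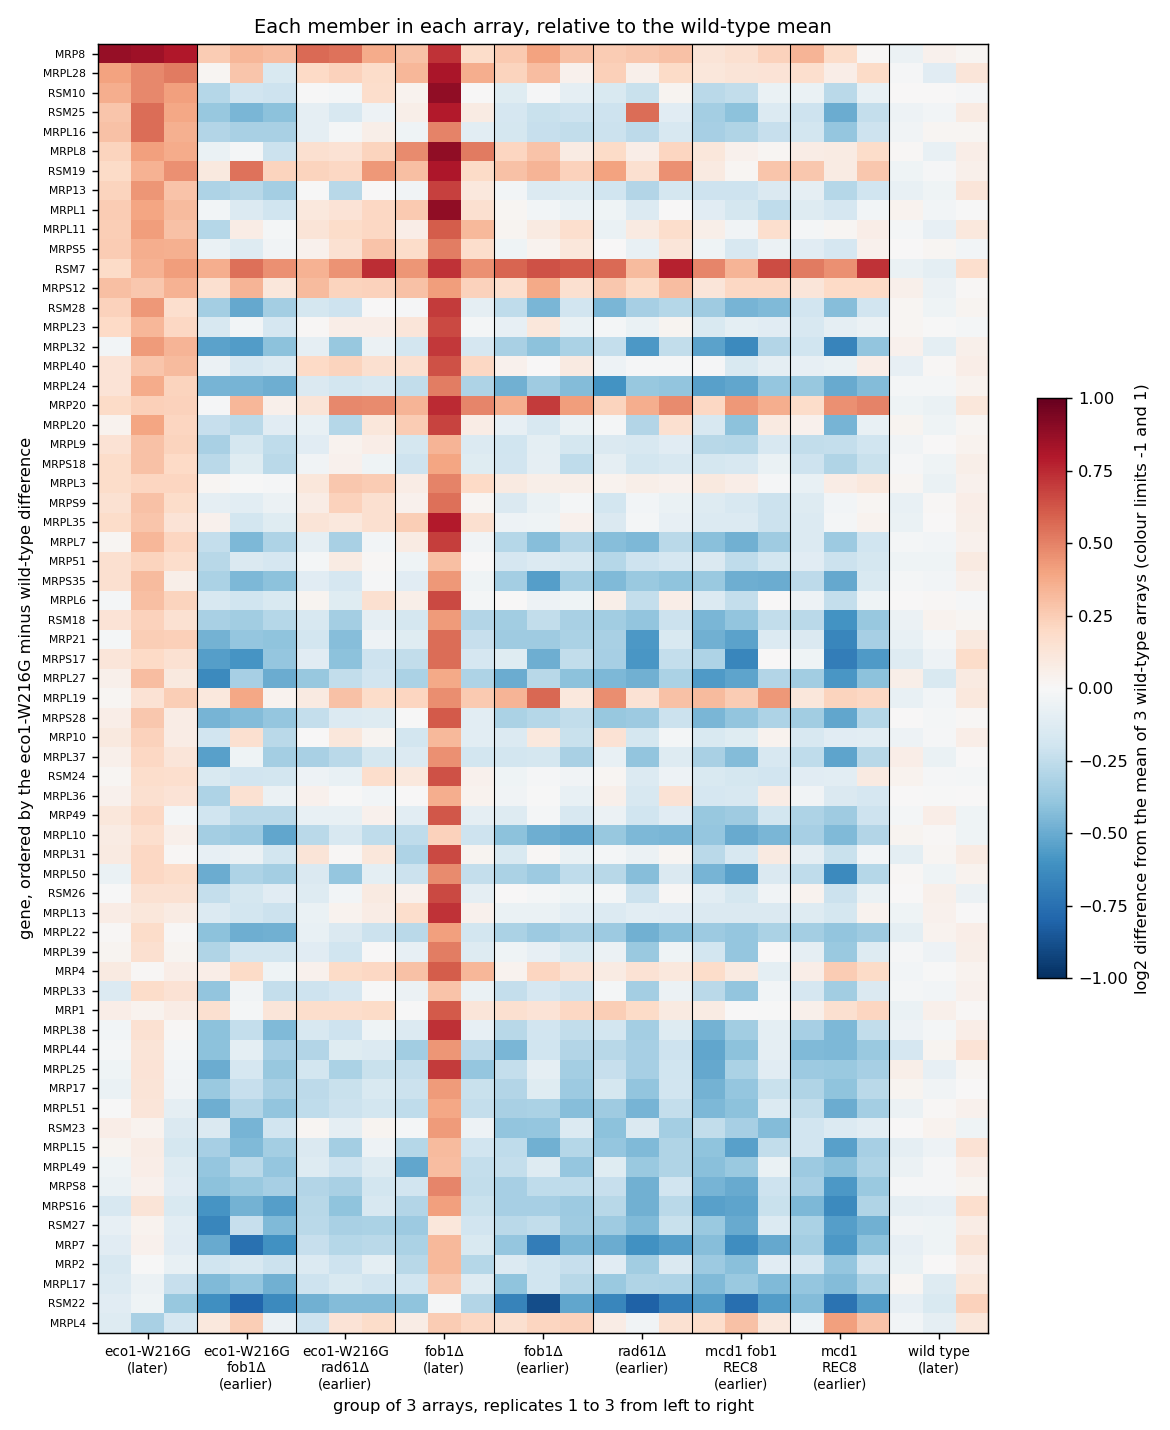
Each row is 1 member and each column 1 array, with the colour giving the log2 difference from the mean of the 3 wild-type arrays. The column of later-date fob1Δ replicate 2 is high in nearly every row, and the rows are ordered by the eco1-W216G difference, from MRP8 (0.84) to MRPL4 (-0.21).

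Compared with wild type, eco1-W216G cultures had higher levels of part of the members. By limma, 16 of 66 members rose (24.2%) and 0 fell, while over all probe sets 23.7% rose and 30.0% fell. Those that rose were MRP8, 7 large subunit genes and 8 small subunit genes, and 20 members were higher and 0 lower at an unadjusted p below 0.05, which 58.8% of all probe sets reached in either direction. The median member difference was 0.144, against -0.055 over all probe sets, and 55 of 66 differences were positive (0.095 and 50 without eco1-W216G replicate 2). Share and background were close for rises, whereas falls made up 30.0% of all probe sets and none of the members. Large subunit genes had a median of 0.12 and small subunit genes one of 0.16. The arrays of both groups did not overlap for 33 of 66 members and for 66.3% of all probe sets. Without later-date fob1Δ replicate 2, which enters only the shared spread, 23 members rose (34.8%) and 0 fell, against 25.2% and 31.3% of all probe sets. All 16 were among the 23.

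MRP8 changed most. It read 12.70, 12.68 and 12.63 in eco1-W216G, against 11.77, 11.87 and 11.85 in wild type. All eco1-W216G arrays lay far above all wild-type arrays. The difference was 0.84 ± 0.10, or 1.79-fold (limma adjusted p = 4.01e-07).

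MRPL28, a large subunit protein, read 10.82, 10.90 and 10.94 in eco1-W216G, against 10.41, 10.31 and 10.54 in wild type. The groups did not overlap, and the difference was 0.47 ± 0.11 (1.38-fold, limma adjusted p = 0.00111). RSM10 read 12.64, 12.75 and 12.68 in eco1-W216G, against 12.28, 12.28 and 12.26 in wild type. Its wild-type arrays were nearly alike, and the difference of 0.41 ± 0.14 was 1.33-fold (limma adjusted p = 0.0197). The call was lost without eco1-W216G replicate 2 (limma adjusted p = 0.0596).

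RSM25, a small subunit protein, read 11.01, 11.29 and 11.12 in eco1-W216G, against 10.68, 10.70 and 10.81 in wild type. Here too the groups did not overlap, and the difference was 0.41 ± 0.16 (1.33-fold, limma adjusted p = 0.0413). Leaving out any of the 6 arrays but eco1-W216G replicate 1 ended this call, with limma adjusted p up to 0.143. RSM25 lies on chromosome IX and read 10.52, 11.29 and 10.62 in rad61Δ, where replicate 2 carried the raised chromosome IX, so that array also widened its SE.

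**Figure D4:**
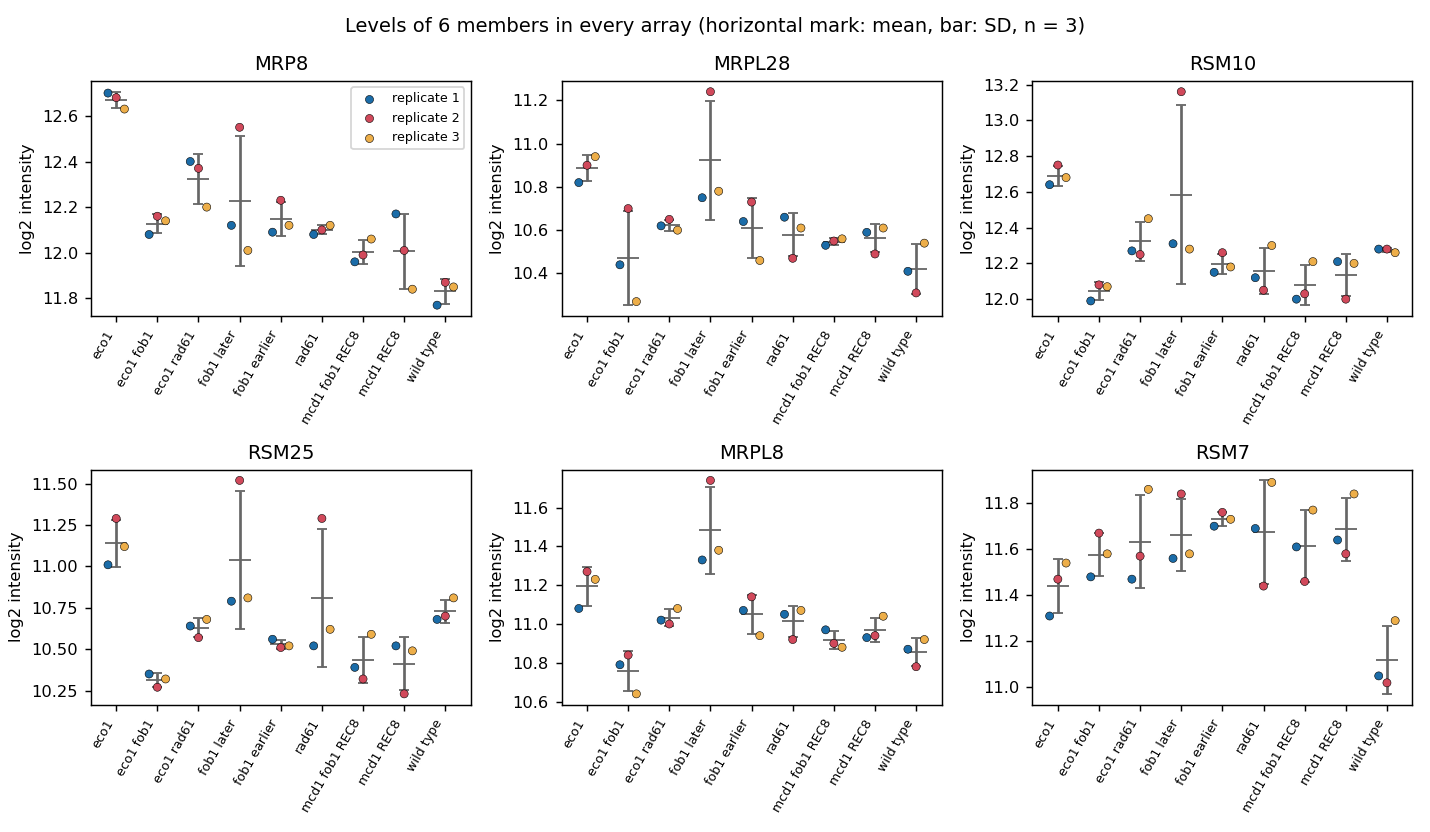
Log2 intensity (vertical axes) of MRP8, MRPL28, RSM10, RSM25, MRPL8 and RSM7 in every array by group, with replicates as points and mean ± SD (n = 3) as marks. MRP8 averages 12.67 in eco1-W216G and 11.83 in wild type, and RSM7 has its lowest group mean, 11.12, in wild type.

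The other 12 members that rose in eco1-W216G were MRPL1, MRPL3, MRPL8, MRPL11, MRPL16, MRPL40, MRP13, MRP51, MRPS5, MRPS12, RSM7 and RSM19. Without later-date fob1Δ replicate 2 the limma adjusted p was 2.71e-09 for MRP8, 0.00011 for MRPL28, 6.95e-05 for RSM10 and 0.0115 for RSM25. Differences of all 16 ran from 0.18 (MRP51) to 0.84 (MRP8). MRPL16 and MRPL11 belong to the uL16 and uL10 families at the core and the stalk of the large subunit, and MRPS5 and MRPS12 to the uS5 and uS12 families near the decoding site of the small subunit. MRPS12 and RSM19 are the only members that are direct neighbours, on chromosome XIV.

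A few members went against the rest without a call. MRPL4 read 9.64, 9.44 and 9.60 in eco1-W216G, against 9.74, 9.68 and 9.88 in wild type. These arrays did not overlap, but the difference of -0.21 ± 0.11 missed the threshold (limma adjusted p = 0.114, and 0.0492 with only the arrays compared). RSM22, a methyltransferase-like small subunit protein and the member of lowest mean signal, read 9.25, 9.32 and 8.98 in eco1-W216G, against 9.28, 9.21 and 9.59 in wild type (-0.18 ± 0.12, limma adjusted p = 0.202). These groups overlapped. MRPL17, of the large subunit, read 11.18, 11.26 and 11.09 in eco1-W216G, against 11.34, 11.19 and 11.43 in wild type (-0.14 ± 0.09, limma adjusted p = 0.17). MRP2, a small subunit protein of the uS14 family, read 11.28, 11.43 and 11.36 in eco1-W216G, against 11.37, 11.44 and 11.50 in wild type (-0.08 ± 0.11, limma adjusted p = 0.575), and in this gene and MRPL17 the groups overlapped too. MRPL36, a large subunit protein of the bL31 family and the member of highest mean signal, read 12.53, 12.65 and 12.62 in eco1-W216G, against 12.49, 12.48 and 12.49 in wild type. It was higher without overlap, and the difference of 0.11 ± 0.10 missed the threshold (limma adjusted p = 0.347).

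Genes that work with the mitoribosome or beside it gave the following values in the same comparison. Over all probe sets 23.7% rose and 30.0% fell there (25.2% and 31.3% without later-date fob1Δ replicate 2). Of 41 respiratory chain and ATP synthase genes, 33 rose and 0 fell against wild type, with a median of 0.37, led by CYC7 (2.06), the alternative cytochrome c isoform, NDE2 (1.25) and SDH2 (1.04). Of 40 processome genes, 0 rose and 38 fell, with a median of -0.51, among them UTP4 (-0.95) and MPP10 (-0.87). Mitoribosomal proteins under other names had a median of 0.20, with 2 of 13 up (RML2 at 0.38 and MHR1 at 0.37), and 4 of 13 without later-date fob1Δ replicate 2. Of 16 translation factors 5 rose and 2 fell (7 and 2 without that array), with MEF2, a factor that acts in ribosome recycling, at 0.88 and the initiation factor IFM1 at -0.43. The tRNA synthetases had 2 of 13 up, 0 down and a median of 0.02, and 3 up and 1 down without that array.

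The background for the next lists was again 23.7% up and 30.0% down over all probe sets. Of 30 import genes 3 rose and 11 fell, with a median of -0.14 (TIM50 at -0.45, TOM70 at -0.36). Of 13 translational activators, which tie single mitochondrial messengers to the ribosome, 1 rose and 4 fell, with PET122 at -0.58. Assembly and rRNA modification genes had 1 up and 2 down of 15 (median 0.06), and transcription and DNA maintenance genes 1 up and 2 down of 10 (median -0.15). Each of these lists had 2 up and 3 down without later-date fob1Δ replicate 2. Among 14 regulators, 2 rose and 7 fell, with a median of -0.25. HAP4, the activating subunit of the complex that drives respiratory genes, was higher by 0.64, while PUF3, whose protein binds mitoribosomal messengers, stood at -0.62. Whether either gene was linked to the levels of the members or of these lists was not tested.

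In the fob1Δ background no member rose with the eco1 allele. Between eco1-W216G fob1Δ and fob1Δ of the same date, 0 of 66 members were called by limma, and 0.787% of all probe sets were. At an unadjusted p below 0.05, 0 were higher and 2 lower, against 11.1% of all probe sets in either direction. The median member difference was -0.096, with 6 of 66 differences positive and a range of -0.37 to 0.06, against a median of 0.009 over all probe sets. Arrays of the groups did not overlap for 20 of 66 members and for 19.3% of all probe sets.

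The lowest difference was that of MRP20, a large subunit protein of the uL23 family at the tunnel exit. It read 9.01, 9.35 and 9.07 in eco1-W216G fob1Δ, against 9.38, 9.72 and 9.44 in fob1Δ. Same-numbered cultures were apart by the same amount although the groups nearly touched. The difference was -0.37 ± 0.12 (limma adjusted p = 0.182). MRP20 was the 1 member called once replicate number was a block (limma adjusted p = 0.0358), where 1.24% of all probe sets were called. MRPL8, of the bL17 family, read 10.79, 10.84 and 10.64 in eco1-W216G fob1Δ, against 11.07, 11.14 and 10.94 in fob1Δ, without overlap. Its difference of -0.29 ± 0.09 was called only without later-date fob1Δ replicate 2 (limma adjusted p = 0.145 with it and 0.0219 without it). There it was the single member of 66 (1.52%), and 1.64% of all probe sets were called. None of the 10 related lists had a called gene in this comparison, with that array or without it.

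In the rad61Δ background most members leaned up again. Between eco1-W216G rad61Δ and rad61Δ, 57 of 66 differences were positive, with a median of 0.106 and a range of -0.18 to 0.31, against a median of -0.009 over all probe sets. Without rad61Δ replicate 2 the median was 0.062, with 44 positive. By limma 1 member rose and 0 fell, with 5.18% of all probe sets up and 1.54% down, and 12 members were higher and 0 lower at an unadjusted p below 0.05, against 23.1% of all probe sets in either direction. Groups did not overlap for 19 of 66 members and for 26.1% of all probe sets. The count depended on later-date fob1Δ replicate 2 through the shared spread alone: without it 14 members rose (21.2%) and 0 fell, against 8.26% up and 3.64% down over all probe sets.

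The member called with all arrays was MRP51, a small subunit protein. It read 11.79, 11.89 and 11.82 in eco1-W216G rad61Δ, against 11.52, 11.60 and 11.64 in rad61Δ. The groups did not overlap, and the difference was 0.25 ± 0.07 (1.19-fold, limma adjusted p = 0.041). Leaving out any array of either group ended the call, as did a fit to only the arrays compared, with adjusted p up to 0.147. The 13 members added without later-date fob1Δ replicate 2 were MRPL1, MRPL3, MRPL10, MRPL16, MRPL22, MRPL24, MRPL35, MRPL40, MRP7, MRP8, MRPS9, MRPS35 and RSM23. Respiratory chain and ATP synthase genes rose here too, 8 of 41 with a median of 0.22 (23 without that array), as did 3 of 13 tRNA synthetases (5 without it). Over all probe sets 5.18% rose, and 8.26% without that array.

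**Figure D5:**
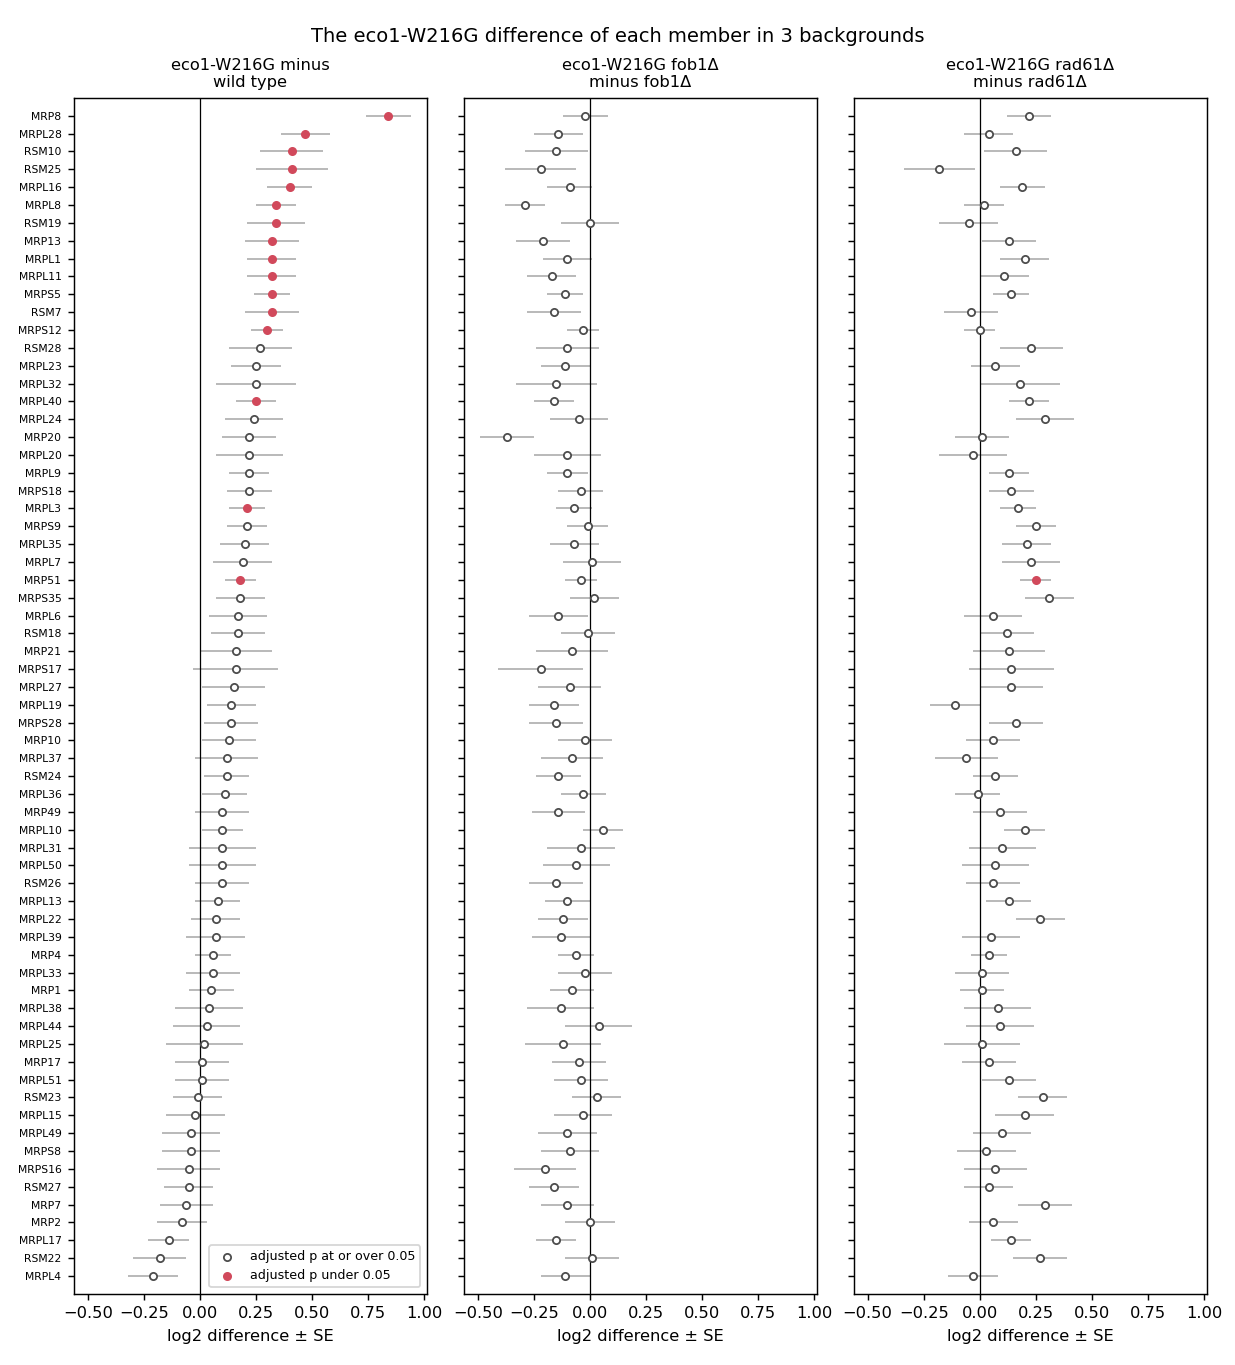
Log2 difference ± SE (horizontal axes) of each member for eco1-W216G against wild type, eco1-W216G fob1Δ against fob1Δ and eco1-W216G rad61Δ against rad61Δ, with filled points where the limma adjusted p was below 0.05. The medians over the 66 members are 0.144, -0.096 and 0.106.

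Whether the eco1 difference itself differed between backgrounds was tested as an interaction. For fob1Δ, 15 of 66 members had a lower eco1 difference than in the FOB1 background (22.7%, limma) and 0 a higher one, against 18.0% and 21.2% of all probe sets. The median interaction was -0.231, against 0.048 over all probe sets, and 61 of 66 were negative. Without later-date fob1Δ replicate 2 the count was 26 down (39.4%) and 0 up, against 20.1% and 23.1% of all probe sets. All 15 were among the 26. MRP8 stood at -0.86 ± 0.14 (limma adjusted p = 6.12e-05), MRPL8 at -0.63 ± 0.12 (limma adjusted p = 0.000348) and MRPL28 at -0.61 ± 0.15 (limma adjusted p = 0.00384). RSM25 stood at -0.63 ± 0.23 (limma adjusted p = 0.0372) and lost its call in 10 of 20 alternative settings, with adjusted p up to 0.0888. In the fob1Δ background itself the median member difference was -0.096, and limma called 0 of 66 members with all arrays. MRPL8 is 1 example in which the eco1 difference changed its sign. It read 11.08, 11.27 and 11.23 in eco1-W216G, against 10.87, 10.78 and 10.92 in wild type, higher without overlap, whereas in the fob1Δ background it was lower without overlap, as given above. The eco1 difference was measured on the later date in the FOB1 background and on the earlier date in the fob1Δ background, so background and date cannot be told apart here.

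Both ribosomal subunits gave similar values in each of these comparisons. The medians were -0.10 for the large and -0.08 for the small subunit in eco1-W216G fob1Δ against fob1Δ, and 0.10 for both in eco1-W216G rad61Δ against rad61Δ. For the fob1 interaction they were -0.21 with 8 of 37 genes called for the large and -0.23 with 6 of 28 called for the small subunit, and MRP8 was the remaining call. The difference between subunits was not tested.

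Related lists had their own values in the fob1 interaction, where 18.0% of all probe sets had a lower eco1 difference and 21.2% a higher one. Of 41 respiratory chain and ATP synthase genes, 26 had a lower eco1 difference in fob1Δ and 0 a higher one, with a median of -0.44. Of 40 processome genes 29 had a higher one and 0 a lower one, with a median of 0.56. These counts were 28 and 30 without later-date fob1Δ replicate 2.

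For rad61Δ, which was also measured on the earlier date, the median interaction over the members was close to 0. It was -0.03 (from -0.057 to 0.017 with single arrays left out), with 26 of 66 positive and a range of -0.62 to 0.45, and limma called 0 up and 2 down, against 11.8% up and 11.6% down over all probe sets. At an unadjusted p below 0.05, 3 were higher and 7 lower, against 36.7% of all probe sets in either direction. MRP8 had a lower eco1 difference in rad61Δ, by -0.62 ± 0.14 (limma adjusted p = 0.00292). Its levels were 12.40, 12.37 and 12.20 in eco1-W216G rad61Δ, against 12.08, 12.10 and 12.12 in rad61Δ, so a gap remained that was narrower than on the later date. MRPS12 read 12.58, 12.48 and 12.49 in eco1-W216G rad61Δ, against 12.53, 12.45 and 12.57 in rad61Δ, which overlap. In the RAD61 background it read 12.56, 12.53 and 12.61 in eco1-W216G, against 12.31, 12.20 and 12.27 in wild type, and the interaction was -0.31 ± 0.10 (limma adjusted p = 0.026, and up to 0.0656 in other settings). Without later-date fob1Δ replicate 2, 3 members were called up (4.55%) and 5 down (7.58%), against 14.2% and 13.5% of all probe sets.

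The fob1 deletion was compared with wild type on the later date, and the outcome turned on replicate 2. With all arrays, 15 of 66 members rose by limma (22.7%) and 0 fell, against 8.73% up and 6.91% down over all probe sets, and the median was 0.13, against 0.02 over all probe sets. Without that array 6 rose (9.09%) and 5 fell (7.58%), against 4.97% up and 3.64% down over all probe sets. The median was then -0.062, whereas it was 0.239 and 0.228 without replicates 1 and 3. The difference changed its sign for 23 members. In a limma fit to only the 6 arrays compared, 0 members and 0.0175% of all probe sets were called, and 14 members were higher and 0 lower at an unadjusted p below 0.05, against 24.3% of all probe sets in either direction.

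The genes called with and without the array were MRPL8, MRPL28, MRP20, MRP4, MRPS12 and RSM7. MRPL8 read 11.33, 11.74 and 11.38 in fob1Δ, against 10.87, 10.78 and 10.92 in wild type. Every fob1Δ array was above every wild-type array, and the difference was 0.63 ± 0.09 with replicate 2 (1.54-fold, limma adjusted p = 0.000415) and 0.50 ± 0.07 without it (limma adjusted p = 0.002). RSM7, of the uS7 family in the head of the small subunit, read 11.56, 11.84 and 11.58 in fob1Δ, against 11.05, 11.02 and 11.29 in wild type. Again there was no overlap, with a difference of 0.54 ± 0.12 (limma adjusted p = 0.00636) and, without the array, 0.45 (limma adjusted p = 0.0345).

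MRP20 read 9.36, 9.77 and 9.51 in fob1Δ, against 8.98, 8.95 and 9.13 in wild type, a difference of 0.52 ± 0.12 (limma adjusted p = 0.0086) and of 0.41 without replicate 2 (limma adjusted p = 0.0471). MRPL28 read 10.75, 11.24 and 10.78 in fob1Δ, against 10.41, 10.31 and 10.54 in wild type, a difference of 0.51 ± 0.11 (limma adjusted p = 0.00613) and of 0.35 without replicate 2 (limma adjusted p = 0.0327). In both genes even replicates 1 and 3 of fob1Δ exceeded all wild-type arrays. The 5 members that fell without replicate 2 were MRP2, MRPL10, MRPL22, MRPL24 and MRPL49, and the 9 that lost their rise were MRP8, MRPL1, MRPL3, MRPL11, MRPL13, MRPL35, MRPL40, MRPS5 and RSM19.

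RSM7 had its lowest group mean in wild type. Wild type averaged 11.12 ± 0.15 (SD, n = 3), and the 8 other groups averaged between 11.44 (eco1-W216G) and 11.73 (fob1Δ, earlier date). This ranking crosses dates with no date correction. On the date of wild type, eco1-W216G averaged 11.44 and fob1Δ 11.66. RSM7 is 1 of 9 members with their lowest group mean in wild type. Related lists also moved with replicate 2 in fob1Δ against wild type. Over all probe sets 8.73% rose and 6.91% fell with that array, and 4.97% rose and 3.64% fell without it. Of 40 processome genes 22 fell (median -0.37), and 5 fell without the array (median -0.24). Of 41 respiratory chain and ATP synthase genes 0 rose and 3 fell with the array, and 3 rose and 0 fell without it.

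The rad61 deletion was compared with wild type across dates by subtracting the date difference of fob1Δ, which brings the same array into the result. The median was 0.121 with all arrays and -0.083 without later-date fob1Δ replicate 2, and 48 and 25 of 66 differences were positive. Over all probe sets the median with all arrays was 0.017. By limma 1 member rose and 0 fell, and 0.315% of all probe sets were called, with 14 members higher and 0 lower at an unadjusted p below 0.05, against 16.3% of all probe sets in either direction. That member was MRPL8, which read 11.05, 10.92 and 11.07 in rad61Δ on the earlier date, with a date-corrected difference of 0.59 ± 0.12 (limma adjusted p = 0.0483). Without the array its difference was 0.46 (limma adjusted p = 0.0744), and it kept its call in 5 of 21 alternative settings.

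Within the earlier date, no member was called among the single deletions and the REC8 strains. For rad61Δ against fob1Δ, limma called 0 members and 0.0350% of all probe sets, and 0 members had an unadjusted p below 0.05, against 4.88% of all probe sets. The median was -0.02 (0.019 without rad61Δ replicate 2), against -0.002 over all probe sets. The range was -0.15 to 0.28, the top value being RSM25. RSM25 read 10.52, 11.29 and 10.62 in rad61Δ, against 10.56, 10.51 and 10.52 in fob1Δ, so only replicate 2, with its raised chromosome IX, stood above fob1Δ by a wide margin.

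For the mcd1 fob1 strain with REC8 against fob1Δ, 0 members were called (0.297% of all probe sets), and 0 had an unadjusted p below 0.05 by limma (8.01% of all probe sets). Of 66 differences 61 were negative, with a range of -0.21 to 0.07. The median was -0.072 (from -0.124 to -0.047 with single arrays left out), against 0.025 over all probe sets. Between that strain and the mcd1 strain with REC8 and intact FOB1, limma called 0 members (0.0175% of all probe sets), and 0 had an unadjusted p below 0.05 (3.03% of all probe sets). The median there was -0.015 (from -0.068 to 0.01 with single arrays left out), against 0.016 over all probe sets. Without later-date fob1Δ replicate 2, these comparisons again had 0 members called by limma, with 1 (rad61Δ), 6 and 3 (the REC8 comparisons in the order given) at an unadjusted p below 0.05, against 6.21%, 10.9% and 4.41% of all probe sets.

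The fob1Δ strain was grown on both dates, which shows how far the members moved with no change of genotype. Comparing the later date with the earlier one, 63 of 66 differences were positive with a median of 0.286, against 0.025 over all probe sets. By limma 12 members rose (18.2%) and 0 fell, against 2.99% up and 1.82% down over all probe sets. MRPL7, of the uL5 family, read 11.78, 12.39 and 11.66 on the later date, against 11.41, 11.27 and 11.40 on the earlier date. All later arrays were higher, and the difference was 0.59 ± 0.13 (limma adjusted p = 0.0134). RSM28, of the small subunit, read 11.72, 12.43 and 11.64 on the later date, against 11.48, 11.28 and 11.54 on the earlier date (difference 0.50 ± 0.14, limma adjusted p = 0.0385).

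MRPS35, also of the small subunit, read 11.24, 11.78 and 11.31 on the later date, against 11.01, 10.80 and 11.01 on the earlier date (difference 0.50 ± 0.11, limma adjusted p = 0.0131). MRP7, of the bL27 family, read 11.06, 11.70 and 11.22 on the later date, against 10.99, 10.68 and 10.92 on the earlier date (difference 0.47 ± 0.12, limma adjusted p = 0.0269). In these genes as well, no later array fell below an earlier one, and replicate 2 of the later date was the highest of all.

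Without later-date fob1Δ replicate 2 those 4 members were no longer called (limma adjusted p = 0.0672 for MRPL7, 0.177 for RSM28, 0.0753 for MRPS35 and 0.134 for MRP7). Only MRPL8 kept its call, against 0.980% up and 0.437% down over all probe sets, and 51 of 66 differences stayed positive with a median of 0.103. At an unadjusted p below 0.05, 42 members were higher with the array and 16 without it, and none was lower in either case. Of all probe sets, 20.9% and 16.8% reached that p in either direction.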

How the data were processed

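Per the labels, biotinylated cRNA was made from 300 ng of total RNA per culture. The authors deposited 1 intensity per probe set and array. RMA and R 2.15.2 are named for it by the submitters' processing notes. The values were linear (10.372 to 39895, array medians 1226.55 to 1276.5), so log2 was taken here. From 5814 probe sets, 51 controls and 47 reporters were removed. The platform table gave 1 symbol to 5498 of 5716 and none to 218. The number of arrays limits the precision.

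Differences were tested two-sided with limma 3.58.1 in R 4.3.3 (lmFit, contrasts.fit, eBayes; 27 arrays, 9 group means, 18 residual degrees of freedom), and p-values were adjusted by Benjamini-Hochberg over the probe sets of a contrast (called below 0.05). The code was tested on simulated data. Alternatives were a replicate block, a fit to only the arrays compared, leaving out dim probe sets, repeated quantile normalization, median centring, a trended and robust prior, other date terms and leaving out arrays.

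The members, lists and tests were chosen with earlier results of these data known. Values per array are given, per contrast, for up to 4 called members of largest difference in each direction without overlap (not asked of interactions or across dates), the member on chromosome IX, the highest and lowest signals, members against the median in eco1-W216G, and MRP8. MRPL25, MRP20 in fob1Δ backgrounds and MRPL8 in eco1-W216G fob1Δ were chosen after their values were seen, as were the added and lost members listed by name.

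Replicate numbers were checked for pairing by correlating deviations from group means. In 4 of 8 comparisons of a pair of groups every same-numbered pair exceeded 0.1: eco1-W216G fob1Δ with fob1Δ (0.35 to 0.64), eco1-W216G rad61Δ with rad61Δ (0.32 to 0.38), rad61Δ with fob1Δ (0.11 to 0.57) and both REC8 strains (0.14 to 0.55). The labels do not say what a number marks. Gene roles are background. Sequences were not used here.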

Additional observations from a re-analysis of the deposited data

Results flagged for a closer look

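The eco1-W216G difference of 4 members differed between the fob1Δ and FOB1 backgrounds by the interaction test of limma. MRP8 differed by -0.86, MRPL8 by -0.63, RSM25 by -0.63 and MRPL28 by -0.61, and 15 of 66 members were called in all, each with a lower eco1 difference (22.7%), against 18.0% lower and 21.2% higher over all probe sets. The eco1-W216G difference of MRP8 in the fob1Δ background was -0.02, and 0.84 against wild type. Between the rad61Δ and RAD61 backgrounds the interaction test called 2 members, MRP8 at -0.62 and MRPS12 at -0.31 (3.03% of the members, against 11.8% up and 11.6% down over all probe sets). In both cases the backgrounds were measured on different dates, so background and date cannot be told apart.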

How the results depend on the processing

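The calls of MRP8, MRPL28 and MRPL8 in the fob1 interaction, of MRP8 in the rad61 interaction, and of MRP8 and MRPL28 in eco1-W216G against wild type held in every alternative run. Left-out arrays moved the number of called members from 6 to 23 in eco1-W216G against wild type. It was 6 without eco1-W216G replicate 2 (9.09% of the members, against 48.1% of all probe sets) and 8 without wild-type replicate 2. It was 10 without eco1-W216G replicate 3 or wild-type replicate 1, and 23 without later-date fob1Δ replicate 2 (34.8% against 56.5%). In fob1Δ against wild type it ran from 8 (without wild-type replicate 3, 12.1% against 3.78%) to 23 (without fob1Δ replicate 3, 34.8% against 23.0%). In rad61Δ against wild type it ran from 0 to 3 (4.55% against 3.78%). In eco1-W216G fob1Δ against fob1Δ it ran from 0 to 1 (1.52% against 1.64%), and in eco1-W216G rad61Δ against rad61Δ from 0 to 14 (21.2% against 11.9%). For the fob1 interaction it ran from 9 (without eco1-W216G replicate 2) to 26, for the rad61 interaction from 1 to 8 (5 without rad61Δ replicate 2), and for later against earlier fob1Δ from 1 to 30 (30 and 29 without later replicates 1 and 3, 5 and 1 without earlier replicates 1 and 2). Among single left-out arrays, the highest counts for both interactions, and 14 in the rad61Δ background, came without later-date fob1Δ replicate 2. With only the arrays compared, the counts were 26 (25 up, 1 down, 39.4% against 57.9% of all probe sets) for eco1-W216G against wild type, 29 (43.9% against 44.7%) for the fob1 interaction, 5 (7.58% against 23.9%) for the rad61 interaction, and 0 for fob1Δ and rad61Δ against wild type, eco1-W216G rad61Δ against rad61Δ and the fob1Δ dates (0 to 3.18% of all probe sets). Without both arrays that stand apart they were 28 (42.4% against 46.2% of all probe sets) and 10 (15.2% against 27.2%) for the fob1 and rad61 interactions. They were 9 (13.6% against 15.9%) in rad61Δ, 1 in fob1Δ (1.52% against 2.52%), 1 between the fob1Δ dates (1.52% against 2.08%) and 0 for rad61Δ against wild type. That last comparison also gave 0 with repeated quantile normalization, median centring or the trended and robust prior, 20 (5 up, 15 down, 30.3% against 28.2% of all probe sets) with no date term and 3 (4.55% against 6.60%) with the date as a random block; the cause was not tested. With a replicate block the counts against wild type were 20 in eco1-W216G (30.3% against 56.6% of all probe sets) and 16 in fob1Δ (24.2% against 21.6%). They were 1 in eco1-W216G fob1Δ against fob1Δ (1.52% against 1.24%) and 17 for the fob1 interaction (25.8% against 43.5%). For the rad61 interaction the count was 4 (6.06% against 27.6%), and 2 without the block. In the paired comparisons the block changed no other call. The block was 1 term shared by all 9 groups, and no paired fit of a single comparison was run. Over all 36 pairs of groups, same-numbered arrays correlated by -0.305 to 0.659.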
